A study of Danio rerio with 6 samples.

Results

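Hedgehog signalling was followed through 7 genes. They were the ligand genes shha and shhb, the receptor genes ptch1 and smo, and the transcription factor genes gli1, gli2a and gli3. A probe set was taken wherever the array's gene annotation gave it one of these symbols, without regard to any measured value. This gave 6 probe sets, 1 each for 6 of the 7 genes, out of 15502 probe sets and 8793 named genes tested. No probe set had the symbol ptch1 in the annotation used here, so ptch1 was not analysed.

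Whole zebrafish embryos were profiled at 24 hpf (hours post fertilization) on 6 Affymetrix Zebrafish Genome Arrays, 3 with RNA of fog sk8 mutants and 3 with RNA of their wild-type (WT) siblings. The sk8 allele severely truncates the product of foggy/spt5 (supt5h), which encodes the transcription elongation factor Spt5, and the study asked which genes respond to its loss in the embryo. Embryos came from natural spawning. The methods name the wild type as AB without giving a strain for the siblings, and describe no drug treatment. RNA was taken from equal numbers of embryos after the chorion was removed by hand or with Pronase. Maternal Spt5 protein is reduced but not gone in the mutants at this age, and the sources used here do not give how many of the WT siblings carried 1 mutant copy. The study picked smo for follow-up partly because it was higher on these same arrays, so its difference below is not independent evidence of its direction.

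Hedgehog ligands are secreted proteins that bind the receptor Patched. Binding releases Patched's hold on Smoothened, a membrane protein that then lets the Gli transcription factors act on their target genes. In the vertebrate embryo the notochord and floor plate make Sonic hedgehog, which patterns the ventral neural tube and the somites, and zebrafish that lack Smoothened function lose their slow muscle fibres.

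The oligonucleotides that the study used for smo are shown because smo is the one Hedgehog gene that rose here, and they mark the stretches of the gene that its other assays read. Each is a 24-base primer with 50.0% G and C, written 5′ to 3′. No base is capitalised, since none is singled out. The pair used for qRT-PCR is also the pair placed at the 3′ end of the gene for chromatin immunoprecipitation. The second pair lies at the 5′ end.
smo qRT-PCR and 3′ end, forward: agaattcaggccttcgtgtccact
smo qRT-PCR and 3′ end, reverse: ttaggttgccatgagctttgctgg
smo 5′ end, forward: agtggatccatggtcttcatccga
smo 5′ end, reverse: tctgggactgggactgtaacttga

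The arrays were alike in overall level. Median log2 values were 5.08 to 5.15 and the 10th percentiles 2.28 to 2.35, which marks the dim end of the scale. Replicates 1 and 2 of a group correlated at r of 0.996 to 0.997 over all probe sets, and replicate 3 stood slightly apart in both groups (0.991 to 0.992 with its own group). WT and mutant arrays correlated at 0.967 to 0.980. The targeted gene supt5h read 7.26 on average in WT and 3.72 in fog sk8 embryos, a difference of −3.54 on the log2 scale (SE 0.20, adjusted p = 0.000994, limma with Benjamini-Hochberg adjustment). Each difference below is the log2 value in fog sk8 minus WT. A gene is said to rise or fall at an adjusted p under 0.05 with at least a 2-fold difference, and genes that passed the p alone are described as higher or lower below 2-fold.

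Of the 6 Hedgehog genes, 1 rose (smo) and 0 fell. The ligand gene shhb was lower below 2-fold, and shha, gli1, gli2a and gli3 did not pass the test. Over all named genes, 0.898% rose and 3.2% fell at 2-fold, and 10.8% were higher and 9.14% lower at any fold. The groups did not overlap for 3 Hedgehog genes, with smo above WT and shhb and gli2a below it, while over all genes 25.3% lay wholly above and 15.6% wholly below. The median difference of the 6 genes was −0.08, beside 0.06 over all genes.

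Of the ligands, shha encodes the main Sonic hedgehog of the zebrafish notochord and floor plate. Its probe set read 7.46, 7.57 and 7.40 in the WT samples and 7.16, 7.50 and 7.31 in the fog sk8 samples. The groups overlapped, since mutant replicate 2 lay above WT replicates 1 and 3. The log2 fold change was −0.15 (SE 0.10, 95% confidence interval −0.40 to 0.10, adjusted p = 0.370 by limma), an interval that does not reach a 2-fold difference in either direction.

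The second ligand gene, shhb, encodes the Sonic hedgehog duplicate known as Tiggy-winkle hedgehog, which the ventral midline makes. It read 3.83, 3.72 and 4.01 in WT and 2.9, 2.96 and 3.39 in fog sk8 embryos. Every mutant sample lay below every WT sample, by at least 0.33, with mutant replicate 3 the nearest. The log2 fold change was −0.77 (SE 0.15, interval −1.15 to −0.39, 1.71-fold lower, adjusted p = 0.0248 by limma). This probe set was dim, with group means of 3.85 and 3.08, both under the level of 4 below which a probe set is called dim here. The adjusted p rose over 0.05 when any one of the 3 WT samples or mutant replicate 1 or 2 was left out (up to 0.0777), and was 0.0160 without mutant replicate 3.

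The receptor gene smo had the largest difference of the 6. It read 6.84, 6.46 and 6.43 in WT and 7.54, 7.59 and 7.63 in fog sk8 embryos. The mutant samples lay close together (7.59 ± 0.05, SD, n = 3), above all WT samples (6.58 ± 0.23), with a gap of 0.70 between the highest WT and the lowest mutant sample. The log2 fold change was 1.01 (SE 0.12, interval 0.71 to 1.31), which is 2.02-fold (1.64 to 2.48), with an adjusted p of 0.00642 by limma. Its size lies at the 2-fold threshold. It fell short of 2-fold without WT replicate 2 (0.96), WT replicate 3 (0.94) or mutant replicate 3 (0.99), while the adjusted p stayed between 0.00658 and 0.0275 over all 6 fits that leave out 1 sample. In these whole embryos, more cells with smo transcript and more transcript per cell cannot be told apart, and the same holds for fewer cells of a type and less RNA per cell in each result below.

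**Figure D1:**
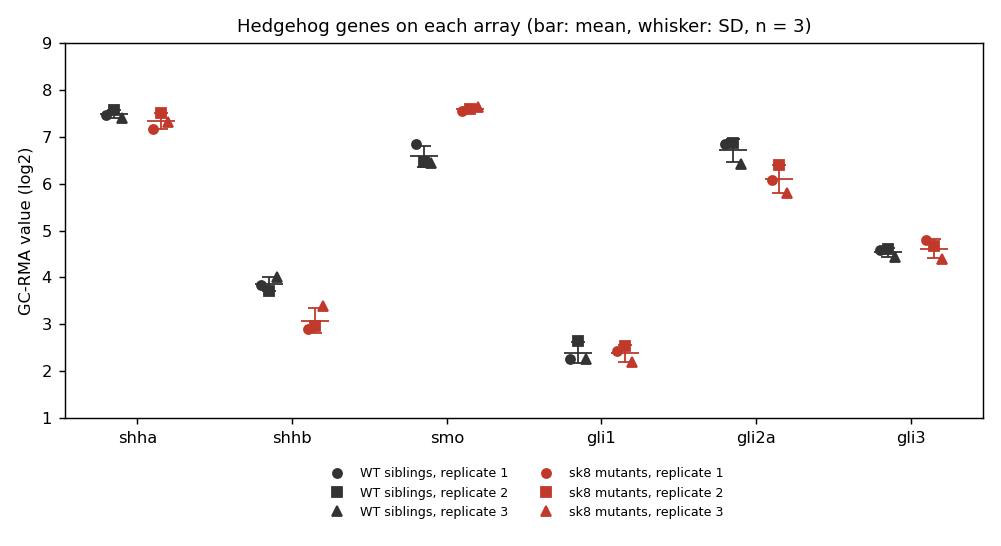
GC-RMA log2 values of the 6 Hedgehog genes on each of the 6 arrays (vertical axis), with WT in black and fog sk8 in red, the mean as a bar and the SD as a whisker (n = 3). The 3 mutant values of smo lie above the 3 WT values, those of shhb lie below, and those of shha, gli1 and gli3 overlap with WT. Heights of different genes are not comparable, since probe sets differ in how well they bind.

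Of the Gli factors, gli2a encodes a zebrafish Gli2, an activator and repressor at the end of the pathway. It read 6.84, 6.86 and 6.42 in WT and 6.07, 6.40 and 5.81 in fog sk8 embryos. The groups were apart by only 0.02, between WT replicate 3 and mutant replicate 2, and replicate 3 was the lowest in both groups. The log2 fold change was −0.61 (SE 0.19, interval −1.09 to −0.14) and did not pass (adjusted p = 0.0858 by limma). It passed below 2-fold in the fit blocked on replicate number (0.0176) and when dim probe sets were left out of the adjustment (0.0465), and missed in each fit that leaves out 1 sample (0.0583 to 0.214).

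The gene gli1 encodes an activator that is itself a target of the pathway, and it read 2.27, 2.65 and 2.26 in WT and 2.43, 2.53 and 2.19 in fog sk8 embryos. These values lie near the 10th percentile of the arrays, so they carry little information on gli1 transcript in either group. The log2 fold change was −0.01 (interval −0.37 to 0.34, adjusted p = 0.957 by limma), and its sign turned when the arrays were centred on their medians (0.03). The gene gli3 encodes the factor known mainly as the repressor of the pathway. It read 4.58, 4.60 and 4.43 in WT and 4.79, 4.66 and 4.39 in fog sk8 embryos, with overlap and a log2 fold change of 0.08 (interval −0.21 to 0.37, adjusted p = 0.675).

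A list of 63 other genes of the pathway was set beside these, and 30 of them were measured, 6 of them dim in both groups. In this list 0 rose and 2 fell, boc and cdon, 2 more were higher and 0 more lower below 2-fold, and the other 26 did not pass. At 2-fold 0.898% of all genes rose and 3.2% fell, and at any fold 10.8% were higher and 9.14% lower. The groups did not overlap for 4 genes of the list above WT and 7 below, beside 25.3% and 15.6% of all genes. The median difference of the list was 0.02, beside 0.06 over all genes.

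Both genes that fell encode co-receptors, membrane proteins of the immunoglobulin family that bind Hedgehog ligands together with Patched. The main probe set of boc, whose zebrafish mutant is umleitung, read 8.15, 8.19 and 8.03 in WT and 7.02, 6.83 and 6.59 in fog sk8 embryos. The lowest WT sample lay well above the highest mutant sample, and the log2 fold change was −1.31 (SE 0.12, interval −1.61 to −1.01, 2.47-fold lower, adjusted p = 0.00329 by limma). The second probe set of boc read 6.48, 6.53 and 6.19 in WT and 5.12, 4.72 and 4.39 in mutants, a log2 fold change of −1.65 (SE 0.20, adjusted p = 0.00678). Both probe sets of boc therefore fell.

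The main probe set of cdon, which encodes the relative of Boc, read 7.24, 7.25 and 6.99 in WT and 6.22, 6.02 and 5.67 in fog sk8 embryos. Here too the groups were apart, by 0.77, with a log2 fold change of −1.19 (SE 0.16, interval −1.58 to −0.80, 2.28-fold lower, adjusted p = 0.0086 by limma). Its second probe set was lower below 2-fold (−0.89, SE 0.22, adjusted p = 0.0481) and lost this in 5 of the 6 fits that leave out 1 sample (0.0180 to 0.123). The remaining probe set lay near the dim end of the scale at 1.98 to 2.36 and did not pass (−0.18, adjusted p = 0.251). Without any one sample the main probe sets still fell, with log2 fold changes of −1.41 to −1.19 and adjusted p of 0.00879 to 0.0191 for boc, and −1.31 to −1.04 and 0.0158 to 0.0357 for cdon.

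**Figure D2:**
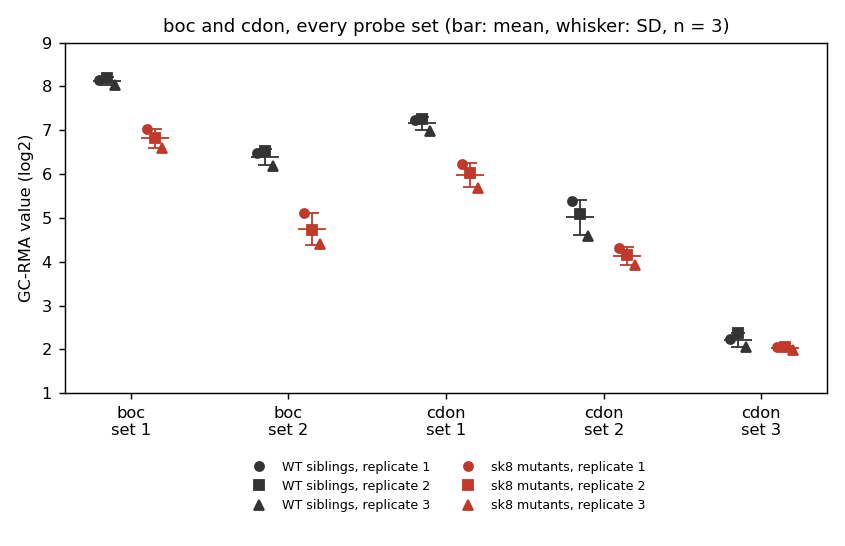
GC-RMA log2 values of every probe set of boc and cdon on each array (WT black, fog sk8 red, bar for the mean, whisker for the SD, n = 3), ordered by mean within each gene. The mutant values lie below the WT values in both sets of boc and in the first and second sets of cdon, and overlap in the third set of cdon, which lies near 2.

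The other measured receptor gene, gas1b, encodes a membrane-anchored co-receptor. It read 5.91, 5.71 and 6.06 in WT and 5.50, 5.77 and 5.63 in fog sk8 embryos, with overlap and a log2 fold change of −0.26 (interval −0.55 to 0.02, adjusted p = 0.190). Among the 4 measured receptor and co-receptor genes, 1 therefore rose (smo, at the 2-fold threshold) and 2 fell, beside 0.898% and 3.2% of all genes. This group was made after the values were seen, so the count is a description only. The gene hhip encodes an inhibitor that binds the ligands and is induced by the pathway, and it averaged 7.75 ± 0.22 in WT and 7.49 ± 0.16 in mutants (SD, n = 3), which overlapped (−0.26, adjusted p = 0.280 by limma). The Indian hedgehog ligand genes ihha and ihhb lay at 1.83 to 2.22 on all arrays, and gli2b at 1.34 to 1.39, so no change of these 3 genes could be seen at this signal.

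Between Smoothened and the Gli factors, 3 genes of the Sufu and Kif7 group, 8 kinase genes and 4 ubiquitin ligase genes were measured. Of these 0 rose and 0 fell at 2-fold, beside 0.898% and 3.2% of all genes. With so few genes, a count of 0 is a description only. Sufu holds Gli proteins in the cytoplasm, and its gene read 7.16 to 7.28 in WT and 6.77 to 7.19 in fog sk8 embryos (−0.20, SE 0.12, adjusted p = 0.325). The kinesin gene kif7 read 4.59 to 5.30 and 4.32 to 4.99 (−0.22, SE 0.26, adjusted p = 0.592), with replicate 3 the lowest in both groups. Protein kinase A and casein kinase 1 phosphorylate the Gli proteins, and 8 genes for these kinases and GSK3 were measured. Of these, 2 were higher below 2-fold, beside 10.8% of all genes higher at any fold. This group too was made after the values were seen, so the count is a description only.

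The first of the 2 higher kinase genes, prkar1aa, encodes a regulatory subunit of protein kinase A. It read 6.29, 6.35 and 6.58 in WT and 7.18, 7.13 and 7.21 in fog sk8 embryos. The groups were apart by 0.56, and the log2 fold change was 0.77 (SE 0.09, adjusted p = 0.00599 by limma). The second, csnk1db, encodes a casein kinase 1 delta and differed by 0.46 (SE 0.09, adjusted p = 0.0214), a pass that was lost in 5 of the 6 fits that leave out 1 sample. The brightest probe sets of the list, those of csnk1a1 and atp6ap2, did not pass (−0.10, adjusted p = 0.386, and 0.12, adjusted p = 0.644). The 4 genes for parts of the ubiquitin ligases that act on Gli proteins did not pass either (adjusted p of 0.126 to 0.847).

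**Figure D3:**
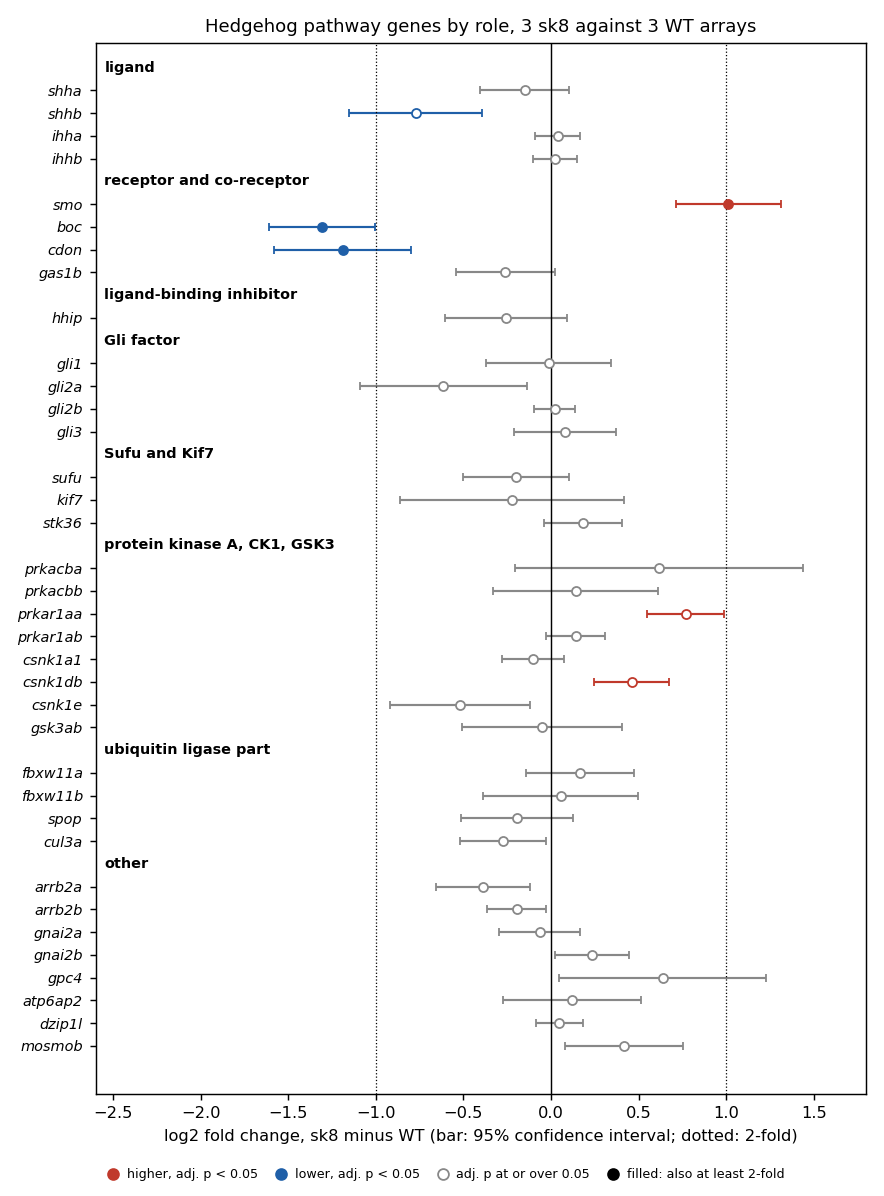
Log2 fold change (fog sk8 minus WT, horizontal axis) of the 36 measured pathway genes grouped by role, as points with 95% confidence intervals. Filled points passed an adjusted p of 0.05 and 2-fold: smo at 1.01 on the right, and boc at −1.31 and cdon at −1.19 on the left. The Gli, Sufu and ubiquitin ligase groups hold only open grey points.

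Next, 56 genes that are known to be switched on, or kept within bounds, by Hedgehog signalling were examined, of which 32 were measured and 9 were dim in both groups. In this list 0 rose and 3 fell (dbx1b, olig3 and sall1a), and a further 3 were higher and 7 lower below 2-fold. At 2-fold 0.898% of all genes rose and 3.2% fell, and at any fold 10.8% were higher and 9.14% lower. The median difference of the list was −0.30, beside 0.06 over all genes. The list pools genes that Hedgehog signalling switches on with genes that it keeps out of some cells. Its median and counts therefore do not measure the output of the pathway. The groups did not overlap for 3 genes of the list above WT and 12 below, beside 25.3% and 15.6% of all genes. The measured genes were grouped by the place in the embryo where they act after their values had been seen. Several of those named below were chosen for their values, so the groups are a description only. Many genes of the neural marker lists were lower too. These lists share pax6a, pax6b, dbx1a, isl1a and isl2a with the responding genes. None of the shared genes reached 2-fold, so the genes of the neural lists that fell are others. The neural genes lower below 2-fold include the shared pax6a, pax6b, dbx1a and isl1a, which are counted on both sides. Of 21 measured genes of neural progenitors, 5 fell and 8 more were lower below 2-fold, with a list mean of 7.62 to 7.67 in WT and 6.82 to 6.97 in mutants, and of 12 neuronal genes 2 fell and 4 more were lower (6.24 to 6.55 and 5.29 to 5.76). At the dim end were notch1b of the first list and snap25b and gad2 of the second. The part of these lists in the result was not tested.

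At the ventral end of the neural tube, the 2 floor plate genes of this list, foxa2 and foxa, were both higher below 2-fold. Over all genes 10.8% were higher at any fold, and a count over 2 genes is a description only. In the notochord and floor plate list below, spon1a, spon1b and ntn1b were dim in both groups. The ligand genes made in the floor plate or ventral midline were not higher. Of these, shha differed by −0.15 and did not pass, and the dim shhb was lower (−0.77). Foxa2 marks the floor plate, and its gene read 6.46, 6.43 and 6.40 in WT and 6.78, 6.97 and 6.93 in fog sk8 embryos. The groups were apart by 0.32 (a difference of 0.46, SE 0.07, adjusted p = 0.0114 by limma). The related gene foxa, also of the midline and gut, read 4.89, 5.20 and 4.88 in WT and 5.87, 5.88 and 5.74 in mutants (0.84, SE 0.11, adjusted p = 0.00739). Values of whole embryos do not show in which tissue these 2 genes were higher. Both passed in each of the 6 fits that leave out 1 sample (adjusted p up to 0.0440 and 0.0306), but foxa2 missed without replicate 3 of both groups (0.0623).

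Beside the floor plate lie progenitors marked by the Nkx2 factors, which need strong Hedgehog signalling. The gene nkx2.2b was higher below 2-fold (4.47, 4.54 and 4.57 in WT, 5.07, 4.82 and 4.91 in mutants, 0.41, SE 0.08, adjusted p = 0.0247), which held in 1 of the 6 fits that leave out 1 sample. The values of nkx2.2a were 5.50, 5.43 and 5.09 in WT and 5.37, 5.62 and 5.94 in mutants, which overlapped (0.30, SE 0.18, adjusted p = 0.316), and nkx2.9 differed by 0.51 (adjusted p = 0.180).

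In the next domain, olig2 marks motor neuron progenitors. It read 6.27, 5.92 and 6.06 in WT and 5.32, 5.36 and 4.67 in fog sk8 embryos, with all mutant samples lower. The log2 fold change was −0.97 (SE 0.21, interval −1.49 to −0.45, 1.96-fold lower, adjusted p = 0.0323 by limma), short of 2-fold, and the pass was lost in 5 of the 6 fits that leave out 1 sample (0.0301 to 0.0952). The motor neuron gene isl1a was also lower below 2-fold (−0.99, SE 0.22, adjusted p = 0.0353), with a smaller difference in its second probe set (−0.37, adjusted p = 0.0130). Its relative isl2a differed by −0.48 and did not pass (adjusted p = 0.0504). Values of whole embryos do not place these differences in motor neurons.

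Genes of the middle and dorsal neural tube, which high Hedgehog signalling keeps out of the ventral cells, included 2 of the 3 that fell. The interneuron progenitor gene dbx1b read 5.25, 5.28 and 5.67 in WT and 3.89, 3.86 and 3.90 in fog sk8 embryos, a gap of 1.35 between the groups (log2 fold change −1.52, SE 0.12, 2.87-fold lower, adjusted p = 0.00236 by limma). The dorsal gene olig3 read 7.99, 7.93 and 7.96 in WT and 6.67, 6.86 and 6.72 in mutants (−1.21, SE 0.07, 2.32-fold lower, adjusted p = 0.000986), while its second probe set, at 2.78 to 3.02, did not pass (−0.18, adjusted p = 0.0651). Both passed in each of the fits that leave out 1 sample. Lower below 2-fold were pax6a (−0.95, adjusted p = 0.00607), pax6b (−0.94, adjusted p = 0.0145), dbx1a (−0.80, adjusted p = 0.0231), irx3a (−0.37, adjusted p = 0.0397) and the dim pax7a (−0.51, adjusted p = 0.0331).

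Under mesoderm and gut 7 genes were grouped, although values of whole embryos do not place a change in these tissues. Of the 7, 1 fell, beside 3.2% of all genes. This was sall1a, which encodes a zinc finger transcription factor and read 5.63, 6.02 and 5.71 in WT and 4.69, 4.91 and 4.71 in fog sk8 embryos (log2 fold change −1.01, SE 0.12, 2.01-fold lower, adjusted p = 0.00703 by limma). Like smo it lay at the threshold, and it came short of 2-fold without WT replicate 2 (−0.89), mutant replicate 1 (−0.97) or mutant replicate 3 (−0.98), and also after median centring (−0.97) or quantile normalization (−0.97). The muscle determination gene myod1 read 4.73, 5.63 and 4.70 in WT and 5.93, 5.13 and 5.33 in mutants (0.44, adjusted p = 0.409). None of the 6 genes grouped under forebrain and eye passed (adjusted p of 0.312 to 0.906). At any fold 10.8% of all genes were higher and 9.14% lower. This count depends on the grouping, which was made after the values were seen and placed pax6a and pax6b with the middle neural tube. In the whole list nkx2.4b, vax1 and vax2 were dim in both groups, which limits what they could show.

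Of the growth genes, ccnd1 encodes cyclin D1, a target of the pathway in several tissues, and its probe sets differed in the call, although every mutant sample was below every WT sample in both. The main one read 10.61, 10.66 and 10.59 in WT and 10.01, 9.87 and 10.45 in fog sk8 embryos and did not pass (−0.51, SE 0.15, adjusted p = 0.0787). It passed below 2-fold with dim probe sets left out (0.0494), without mutant replicate 3 (−0.68, adjusted p = 0.0128) and without replicate 3 of both groups (−0.70, adjusted p = 0.0223). The other read 10.02, 10.03 and 10.13 in WT and 8.90, 8.99 and 8.99 in mutants and fell (−1.10, SE 0.06, adjusted p = 0.000986 by limma). The gene mycn did not pass in its main probe set (−0.08, adjusted p = 0.735).

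**Figure D4:**
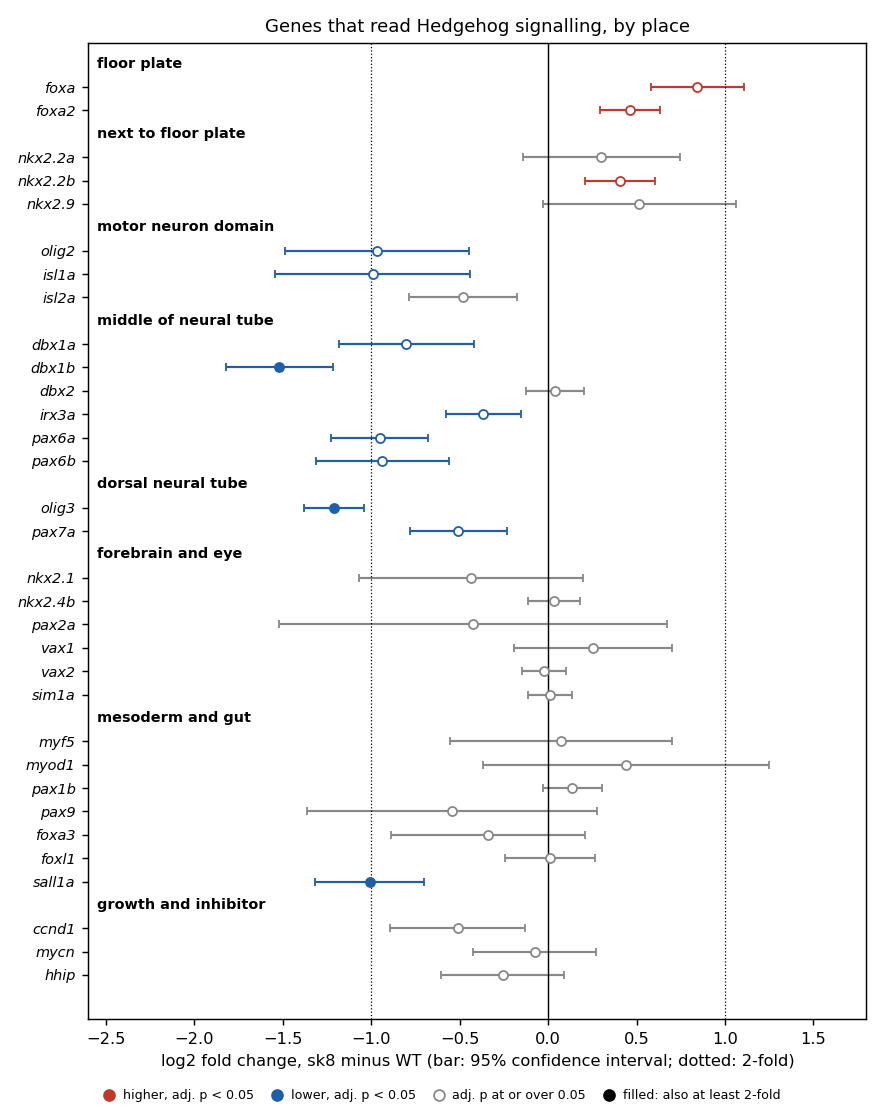
Log2 fold change (fog sk8 minus WT, horizontal axis) with 95% confidence intervals of the 32 measured genes that respond to Hedgehog signalling, by place in the embryo. The floor plate genes foxa (0.84) and foxa2 (0.46) lie to the right of 0, and most genes of the motor neuron, middle and dorsal groups lie to the left, down to dbx1b at −1.52.

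Vertebrate cells need a primary cilium to pass the Hedgehog signal from Smoothened to the Gli factors. Of 76 genes of cilia in general, not of primary cilia alone, 31 were measured and 12 were dim in both groups. In this list 0 rose and 0 fell at 2-fold, beside 0.898% and 3.2% of all genes. At any fold 9.14% of all genes were lower. Below 2-fold, 3 genes of the list were lower: bbs7 (−0.50, adjusted p = 0.0400), rsph9 (−0.54, adjusted p = 0.0251, dim) and ttc8 (−0.40, adjusted p = 0.0475). Each of these passes was lost in 4 to 6 of the fits that leave out 1 sample. The transition zone gene rpgrip1l and the ciliary transcription factor gene rfx2 had the highest means, and differed by −0.09 (adjusted p = 0.700) and −0.02 (adjusted p = 0.958).

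The notochord and floor plate are the source of the ligands, and 35 of 60 genes of their list were measured, 14 of them dim. The list shares shha, shhb, ihhb, foxa and foxa2 with those above. In it 0 rose and 6 fell, beside 0.898% and 3.2% of all genes. A further 5 were higher below 2-fold, foxa and foxa2 among them, and 4 more were lower. Over all genes 10.8% were higher and 9.14% lower at any fold. The largest falls were in genes of the notochord sheath and of collagen IX, a fibre-associated collagen. They were col9a1b (a difference of −2.77, SE 0.25, adjusted p = 0.00302 by limma), cmn, which encodes the sheath protein Calymmin (−2.43, SE 0.26, adjusted p = 0.00490), col9a2 (−1.96, SE 0.23, adjusted p = 0.00618) and col9a3 (−1.47, SE 0.20, adjusted p = 0.00866). The list mean was 6.11 to 6.24 in WT and 5.86 to 5.95 in fog sk8 embryos. The median difference of the list was 0.02, beside 0.06 over all genes, so the lower mean does not describe most of its genes. The notochord transcription factor gene tbxta did not pass (5.11, 5.34 and 6.04 in WT, 5.91, 5.47 and 5.76 in mutants, 0.22, adjusted p = 0.608), and noto lay at 2.09 to 2.95. In the same samples shha differed by −0.15 and shhb by −0.77, and the part of the midline cells in the shhb difference was not tested.

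Slow muscle fibres form under Hedgehog signals from the notochord. Of 19 genes of this list 7 were measured. Of these 0 rose and 2 fell, beside 0.898% and 3.2% of all genes. The 2 were prox1a and boc. The co-receptor gene boc is also in the pathway list, so the same fall is counted in both lists. The gene prox1a encodes a transcription factor of slow fibres and read 4.48, 4.29 and 4.23 in WT and 3.23, 3.28 and 3.16 in fog sk8 embryos, apart by 0.95 (a difference of −1.11, SE 0.08, adjusted p = 0.00202 by limma). The slow myosin gene smyhc1 was lower below 2-fold (11.64, 11.57 and 11.78 in WT, 10.83, 10.51 and 10.97 in mutants, −0.90, SE 0.13, adjusted p = 0.0115). The myogenic factor gene myog did not pass (0.53, adjusted p = 0.383), with WT replicate 3 low at 6.41 beside 7.59 and 7.78. Nor did myod1, also of this list (0.44, adjusted p = 0.409 by limma). When the replicate number was a block, mef2ca passed as well (−1.17, adjusted p = 0.0157, against 0.126 without).

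In several lists of other cell types, though not in all, genes fell, beside 3.2% of all genes. Those that fell were 3 of 6 pigment cell genes, 3 of 7 eye and lens genes and 2 of 5 endothelial genes. Of 11 genes of hatching gland, liver and pronephros 3 fell. These 4 lists held 2, 1, 3 and 2 dim genes. Of 9 measured fast muscle genes 8 fell (list mean 11.3 to 12.2 in WT, 8.56 to 9.76 in fog sk8 embryos), and of 10 blood genes 7 fell (7.25 to 7.89 and 5.30 to 5.41), with mpx and spi1b dim. Of 11 epidermal genes 0 rose and 0 fell, and 1 was higher and 2 were lower below 2-fold (9.55 to 9.69 and 9.57 to 9.67). Over all genes 10.8% were higher and 9.14% lower at any fold. The part of these cell types in the Hedgehog values was not tested.

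For each Hedgehog gene, the genes most like it across the 6 arrays were found by the root mean square difference of log2 values, each gene centred on its own mean. For smo they were arrdc2 (0.0843, r = 0.988), slc22a31 (0.0891, r = 0.986) and zgc:136439 (0.0931, r = 0.987). For shhb they were ckbb (0.0350), prkcsh (0.0562) and sypa (0.0678), and for gli2a lig1 (0.0578), zgc:101858 (0.0600) and mdm4 (0.0678). The nearest to shha was atxn7l2b (0.0266), to gli1 tox4b (0.0294) and to gli3 araf (0.0365). These are descriptions over 6 arrays that share the difference between the 2 groups, and the nearest of 8793 genes is close by selection.

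**Figure D5:**
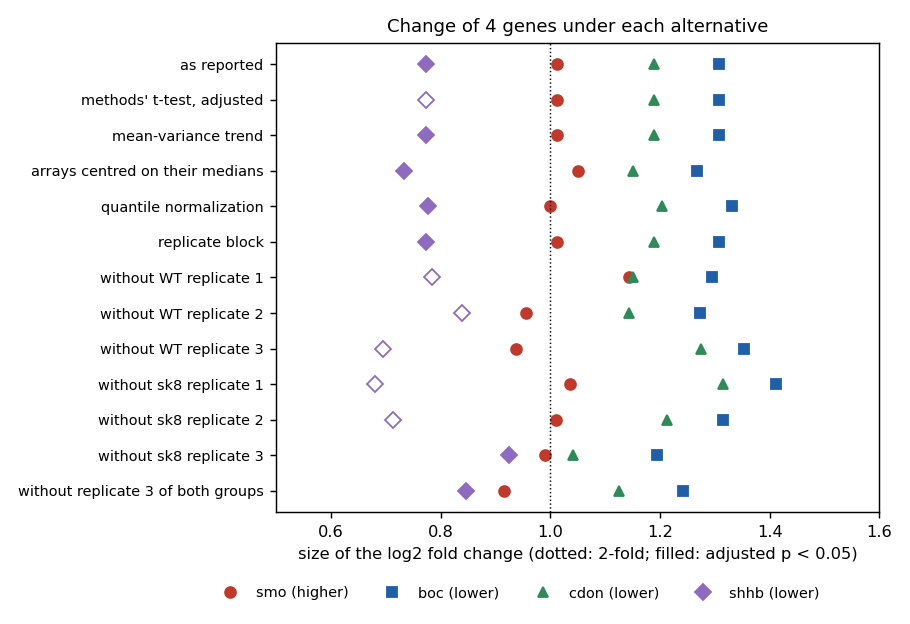
Size of the log2 fold change (horizontal axis) of smo (higher) and of boc, cdon and shhb (lower) as reported and under each alternative, with filled symbols at an adjusted p under 0.05. The size of smo lies between 0.92 and 1.14, on both sides of the dotted 2-fold line, boc and cdon lie to the right of it throughout, and shhb lies to the left of it and is open in 6 settings.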

How the data were processed

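The deposited values are log2 intensities that the authors obtained with GC-RMA, a method that uses probe GC content to remove background, then normalizes the arrays and summarises each probe set. Its version was not found in the sources used here. Neither scanner files nor absent-present calls were used here. The labels gave the groups, and 0 columns of other samples were read. According to the methods the 3 samples of a group were independent replicates, which limits how small a difference can be seen.

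After removal of 115 control probe sets from 15617, limma 3.58.1 (R 4.3.3, lmFit then eBayes, without covariates) tested 15502, and p-values were adjusted over these by Benjamini-Hochberg. The methods used a t-test with a 2-fold minimum on the same values, which is an alternative here. In the platform's annotation 10795 probe sets had 1 gene symbol, 135 had several and 4572 had none, and only those with 1 were named. RefSeq's GRCz12tu gene table served for names only. It held the Entrez IDs of 10711 probe sets and updated 1 symbol. Where a gene had several probe sets, the brightest on average was its main one. Others were described for boc, cdon, isl1a, olig3 and ccnd1 only. A probe set was dim with a mean under 4 in both groups. List means are means of log2 values over the measured genes of a list. Primer sequences came from the study's supplementary tables.

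The Hedgehog genes and all lists were chosen with earlier results of these data known, and the grouping by role and place was made after the values were seen. The text names by rule all Hedgehog genes, up to 4 members of each list with the largest difference past the threshold (and, in lists with fewer than 4, up to 2 bright ones that did not pass), the measured ligand, receptor, Gli and Sufu genes, and nkx2.2a, olig2, foxa2, myod1 and supt5h. The others were chosen after their values were seen.

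Whether replicate numbers pair the samples was judged by correlating, over probe sets, the deviations from group means, which gave 0.12, 0.29 and 0.39 for replicates 1, 2 and 3. All exceed 0.1, although WT replicate 1 correlated more with mutant replicate 2 (0.18), and mutant replicate 1 with WT replicate 2 (0.15), than with each other. The labels name no shared clutch or day, so the replicate block is an alternative. The other alternatives were quantile normalization, median-centred arrays, a mean-variance trend in limma, the methods' t-test (adjusted or not), no fold minimum, dim probe sets left out, and each sample left out. A fit without replicate 3 of either group was chosen after seeing the data. The fit was tested on simulated data. Other software was Python 3.11.15 with pandas 2.3.3, scipy 1.17.1 and matplotlib 3.10.9.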

Additional observations from a re-analysis of the deposited data

How the results depend on the processing

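Among the genes past the 2-fold threshold that were recomputed under each alternative (smo, boc, cdon, dbx1b, olig3, sall1a, col9a1b, cmn, col9a2, col9a3, prox1a and supt5h), none reversed. The gene sall1a came short of 2-fold after median centring (−0.971) and quantile normalization (−0.965), and foxa2 lost its pass below 2-fold without replicate 3 of both groups (0.0623). The adjusted p of smo stayed under 0.05 in all of them, but its size came short of 2-fold after quantile normalization (log2 fold change 0.998) and without replicate 3 of both groups (0.915), and lay between 0.938 and 1.14 when 1 sample was left out. The number of Hedgehog genes that rose was therefore 1 or 0: 0 after quantile normalization, 0 without replicate 3 of both groups, and 0 to 1 when 1 sample was left out. With no minimum fold, shhb counted as lower (−0.773), so that 1 Hedgehog gene was lower instead of 0. The methods' t-test, adjusted, gave an adjusted p of 0.0374 for smo and 0.0863 for shhb. Without a minimum fold the counts rose from 79 to 947 genes higher and from 281 to 804 lower, and from 116 to 1376 probe sets higher and from 445 to 1239 lower. With the methods' t-test, adjusted, they were 38 genes higher and 162 lower, and 64 probe sets higher and 254 lower. In the lists, no minimum fold gave 2 other pathway genes higher, 3 responding genes higher and 10 lower, 3 cilium genes lower, and 5 notochord and floor plate genes higher and 10 lower. Without replicate 3 of both groups, 5 responding genes were lower at 2-fold instead of 3, since isl1a and pax6b joined them.

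With the replicate block, the adjusted p was 0.0120 for smo, 0.0108 for shhb, 0.00428 for boc and 0.00471 for cdon. It brought gli2a under 0.05 (0.0176), at a size below 2-fold. The block raised the falls in the slow muscle list, boc included, from 2 to 3, and changed no other 2-fold call of the named genes. Reading a Hedgehog gene from another of its probe sets could not be run, since each of the 6 had 1 probe set. Signal limits gli1, gli2b, ihha and ihhb, which lay at the dim end of the scale on all arrays, and shhb was dim too. An interval that includes 0 does not show that a gene was unchanged.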
